A study of Mus musculus with 9 samples.

Results

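Deoxynucleotides are the building blocks of DNA, and 9 genes of the enzymes that make them were followed in cerebella of tumour-prone mice with and without Pycard. They were taken by gene symbol from the array's annotation, and all 9 of 9 were found among 19087 named genes, on 18 array features. Rrm1, Rrm2 and Rrm2b encode the subunits of ribonucleotide reductase. Tyms, Shmt1 and Dut encode enzymes that supply thymidylate (dTMP), and Tk1, Dck and Dtymk encode kinases that phosphorylate deoxynucleosides or dTMP.

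All 9 arrays carried total RNA of cerebellum at postnatal day 20 from SmoA1 mice, which the labels describe as a medulloblastoma strain; SmoA1 is an activated form of Smoothened, the signal transducer of the Hedgehog pathway. In 5 samples Pycard was wild-type and in 4 it was knocked out; Pycard encodes the inflammasome adaptor ASC. The sources used here do not name the promoter of the SmoA1 transgene. They also do not state that the arrays come from separate animals, so the p-values reflect the scatter among these 9 samples, part of which may be technical. Each value is the ratio of one sample over a reference pool, on a log scale read as log2. The pool was made from cerebella of wild-type mice aged 16 days. On every array the sample carried Cy5 and the pool Cy3. Strain, age and dye thus all differ between samples and pool and cannot be told apart.

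Ribonucleotide reductase removes the 2′ hydroxyl of ribonucleotides and is the entry point to all 4 deoxynucleotides. Its large subunit, Rrm1, pairs with Rrm2 in dividing cells or with Rrm2b, a form induced by p53 that also serves non-dividing cells. Thymidylate is made from dUMP by thymidylate synthase (Tyms) with a folate carbon that serine hydroxymethyltransferase (Shmt1) helps supply, or salvaged from thymidine by thymidine kinase (Tk1). In the young cerebellum the dividing cells are mainly granule neuron progenitors, which Hedgehog signals keep in cycle and from which SmoA1 tumours arise.

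Rrm2, Tyms and Tk1 were higher than the pool in both genotypes, and the 300 bases around their transcription starts are shown because these 3 genes carry the result. The windows run from 250 bases before the start to 50 after it, are written 5′ to 3′ on the gene's own strand, and come from RefSeq on build GRCm38.p6. Rrm2 lies at chr12:24708004-24708303 on the plus strand, Tyms at chr5:30073576-30073875 on the minus strand and Tk1 at chr11:117825965-117826264 on the minus strand. Capitals mark a CCAAT box, a motif bound by NF-Y.
Rrm2: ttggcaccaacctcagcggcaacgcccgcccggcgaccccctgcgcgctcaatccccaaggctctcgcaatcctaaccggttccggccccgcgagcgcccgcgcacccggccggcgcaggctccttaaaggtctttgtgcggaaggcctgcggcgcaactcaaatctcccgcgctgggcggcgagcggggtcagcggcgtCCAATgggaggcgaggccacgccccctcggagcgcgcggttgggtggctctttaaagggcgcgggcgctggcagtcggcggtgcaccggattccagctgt
Tyms: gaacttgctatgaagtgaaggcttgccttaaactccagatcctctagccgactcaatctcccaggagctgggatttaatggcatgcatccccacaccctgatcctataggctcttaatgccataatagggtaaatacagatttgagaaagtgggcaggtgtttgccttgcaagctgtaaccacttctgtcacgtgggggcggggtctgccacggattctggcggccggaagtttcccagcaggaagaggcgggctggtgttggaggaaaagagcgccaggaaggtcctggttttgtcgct
Tk1: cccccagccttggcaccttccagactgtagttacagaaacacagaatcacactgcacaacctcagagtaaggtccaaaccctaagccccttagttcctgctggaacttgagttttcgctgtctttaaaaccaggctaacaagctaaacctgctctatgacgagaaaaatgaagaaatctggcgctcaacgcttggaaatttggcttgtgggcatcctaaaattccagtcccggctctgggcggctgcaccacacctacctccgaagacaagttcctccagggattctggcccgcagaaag
A window was held for 8 of the 9 genes. CCAAT was found on either strand in 4 of them, against 37.4% of all 32851 windows of this length. In Rrm2 it starts 50 bases before the transcription start, in Rrm1 it occurs 91 and 45 bases before, in Shmt1 47 bases before and in Dtymk 112 bases before. Of the E2F motifs TTTCCCGC, TTTCGCGC, TTTGCCGC and TTTGGCGC, none occurred in these 8 windows, and 2.26% of all windows hold one. The letters TTTGAA or TTCGAA, forms of the cell cycle homology region, were found in the Dck window alone, against 19.2% of all windows. The motifs do not overlap, and a match or its absence in these windows says nothing of binding.

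Pycard, the deleted gene, was low on all 4 knockout arrays. Its feature 39700 measured 1.02, 1.28, 0.99, 1.31 and 1.35 in wild-type and -4.14, -3.20, -2.90 and -3.49 in knockout, a difference of -4.62 (limma adjusted p = 0.000464). Pycard feature 33618 did not pass (limma adjusted p = 0.925), though its groups did not overlap and it reached -0.054 on knockout 3. The sources used here do not say which exons were deleted, so neither feature is known to lie there. The SD over features ran from 0.552 on knockout 1 to 1.12 on wild-type 4, the arrays that were lowest and highest for most of the 9 genes, and exact zeros made up 1.07% to 7.35% of an array. No 2 arrays held identical values.

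Rrm2, the small subunit of dividing cells, had the highest ratio of the 9 genes in both genotypes when the features of a gene were averaged. Its log2 ratios were 2.90, 3.33, 3.70, 3.60 and 3.04 on wild-type 1 to 5, and 1.16, 2.55, 3.82 and 1.89 on knockout 1 to 4. Knockout 3 had the highest value of all 9 arrays and the other 3 knockout arrays lay below every wild-type array, so the groups overlapped through that 1 array. The wild-type mean was 3.31 ± 0.34 (SD, n = 5), 9.93-fold over the pool (limma adjusted p = 0.00036), and the knockout mean 2.36 ± 1.13 (SD, n = 4), 5.12-fold (limma adjusted p = 0.00934). Among the 19087 named genes it ranked 52 from the top in wild-type and 38 in knockout.

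Tyms, which methylates dUMP to dTMP, was 5.06-fold over the pool in wild-type and 2.78-fold in knockout as the average of its 3 features. On wild-type 1 to 5 its log2 ratios were 1.94, 2.20, 2.22, 2.85 and 2.49, and on knockout 1 to 4 they were 0.64, 1.87, 2.15 and 1.24. Again only knockout 3 reached the wild-type range. The means were 2.34 ± 0.34 (SD, n = 5; limma adjusted p = 0.0003) and 1.48 ± 0.68 (SD, n = 4; limma adjusted p = 0.0111).

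Tk1, the cytosolic thymidine kinase of S phase, was 7.07-fold over the pool in wild-type and 4.08-fold in knockout. Its log2 ratios were 2.73, 2.77, 2.72, 3.28 and 2.60 on the wild-type arrays and 0.87, 2.31, 2.81 and 2.12 on the knockout arrays. Wild-type 4 stood above the other wild-type arrays, and knockout 1 was the lowest array of all. The means were 2.82 ± 0.27 (SD, n = 5; limma adjusted p = 0.000249) and 2.03 ± 0.82 (SD, n = 4; limma adjusted p = 0.00612).

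Dut and Shmt1 were called higher than the pool in wild-type. Dut, the dUTPase that keeps uracil out of DNA and yields dUMP, measured 0.93, 1.18, 1.39, 1.83 and 1.50 on wild-type 1 to 5 and 0.38, 0.95, 1.27 and 0.93 on knockout 1 to 4. Its wild-type mean of 1.37 ± 0.34 (SD, n = 5) passed (limma adjusted p = 0.000558), while the knockout mean of 0.88 ± 0.37 (SD, n = 4; limma adjusted p = 0.0196) lay below the minimum of 1 set for a call. Shmt1 measured 0.57, 0.80, 1.02, 2.08 and 1.77 in wild-type and -0.011, 0.54, 0.88 and 0.47 in knockout. The wild-type mean was 1.25 ± 0.65 (SD, n = 5; limma adjusted p = 0.00518) and the knockout mean 0.47 ± 0.37 (SD, n = 4; limma adjusted p = 0.315). Wild-type 4 and 5 were well above the other arrays for Shmt1, and its wild-type mean fell below the minimum on the arrays titled with a letter alone, at 0.80, and with array weights, at 0.89.

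**Figure D1:**
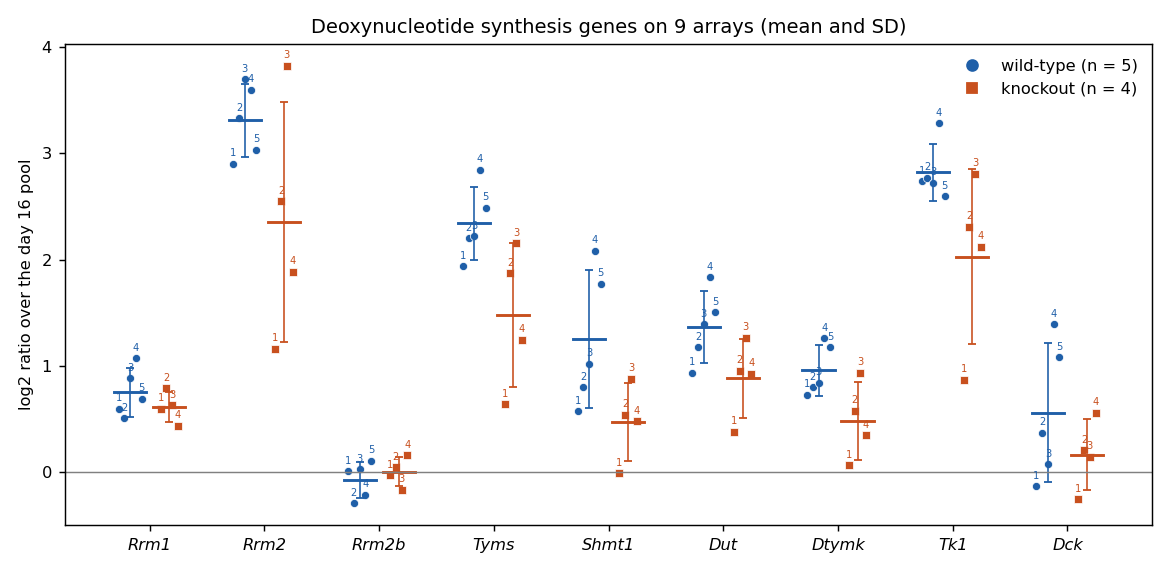
Log2 ratio over the day 16 pool (vertical axis) for the 9 deoxynucleotide synthesis genes, with circles for 5 wild-type and squares for 4 knockout arrays, numbered by replicate, and bars for mean and SD. Rrm2, Tyms and Tk1 lie highest, Rrm2b lies about 0, and knockout 3 lies at or above the lowest wild-type array for every gene but none of the genes separates the genotypes.

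Rrm1, Dtymk, Dck and Rrm2b did not reach a mean of 1 against the pool in the main fit. Rrm1, the catalytic subunit, measured 0.59, 0.51, 0.88, 1.07 and 0.69 in wild-type and 0.59, 0.79, 0.63 and 0.44 in knockout, averaged over its 2 features. Dtymk, the kinase that turns dTMP from either route into dTDP, measured 0.72, 0.80, 0.84, 1.26 and 1.17 in wild-type and 0.065, 0.57, 0.94 and 0.34 in knockout. The Rrm1 means of 0.75 ± 0.23 (SD, n = 5) and 0.61 ± 0.14 (SD, n = 4) differed from the pool (limma adjusted p = 0.000902 and 0.013) with less than the minimum size, and so did the wild-type mean of Dtymk, 0.96 ± 0.24 (SD, n = 5; limma adjusted p = 0.0014).

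Dck, which phosphorylates deoxycytidine and purine deoxynucleosides, measured -0.13, 0.37, 0.075, 1.39 and 1.08 in wild-type and -0.26, 0.20, 0.14 and 0.56 in knockout. The 2 high wild-type values are those of wild-type 4 and 5. Rrm2b, as the average of 2 features, measured 0.0075, -0.29, 0.022, -0.21 and 0.11 in wild-type and -0.034, 0.043, -0.17 and 0.16 in knockout. As averages in the main fit, neither gene differed detectably from the pool, with limma adjusted p = 0.109 for Dck and 0.534 for Rrm2b in wild-type, and 0.76 and 1 in knockout. For Dck in wild-type this depended on feature and fit. Features 42818 and 30240 stood at 0.65 and 0.60 (limma adjusted p = 0.00905 and 0.0487), and feature 32693 at 0.42 (limma adjusted p = 0.433). The averaged Dck had limma adjusted p = 0.0279 with the replicate number as a block and 0.00601 with title style as a block.

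In all, 5 of the 9 genes were called higher than the pool in wild-type (limma adjusted p under 0.05 and a mean of at least 1) and 3 in knockout, with 0 called lower in either. Over all 30654 values tested, 3.73% were called higher and 1.79% lower in wild-type, and 1.58% higher and 0.398% lower in knockout. The wild-type calls are Rrm2, Tk1, Tyms, Dut and Shmt1, and the knockout calls are Rrm2, Tk1 and Tyms. The smaller number in knockout does not show that Dut or Shmt1 differed between the genotypes. Without knockout 2 the knockout count fell to 1, Tk1, with Rrm2 at 2.29 (limma adjusted p = 0.054) and Tyms at 1.34 (limma adjusted p = 0.0635).

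Single features of a gene gave unlike values for Tyms, Rrm1 and Dtymk, so their averages lie well below the highest feature. The Tyms features 12590 and 13405, both listed under NM_021288, had wild-type means of 3.23 ± 0.46 and 3.40 ± 0.54 (SD, n = 5) and knockout means of 1.99 ± 0.94 and 2.12 ± 0.96 (SD, n = 4). Tyms feature 10950, listed under X14489, lay at 0.39 ± 0.17 in wild-type and 0.32 ± 0.19 in knockout. Over the 9 arrays the first 2 correlated at r = 0.981 with each other, and feature 10950 with them at 0.432 and 0.555.

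Rrm1 feature 10311 (NM_009103) measured 1.19, 1.63, 1.72, 2.15 and 1.98 in wild-type and 0.31, 1.12, 1.61 and 0.87 in knockout, with a wild-type mean of 1.73 ± 0.37 (SD, n = 5; limma adjusted p = 0.000487) over the pool. Rrm1 feature 1960 (AK049601) was listed at exactly 0 on 3 arrays and ran from -0.61 to 0.87 on the others, opposite to feature 10311 (r = -0.735, 9 arrays). Dtymk feature 8573 (NM_023136) had a wild-type mean of 1.56 ± 0.29 (SD, n = 5; limma adjusted p = 0.000306), and feature 34578 (BC030178) one of 0.36 ± 0.20. Tested singly, 10 of the 18 features were called higher than the pool in wild-type, where 3.84% of all 45220 features were, and 4 in knockout, where 1.57% were. These 10 belong to 7 genes, which are Rrm1 and Dtymk beside the 5 above.

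The 2 Dut features (r = 0.985) and the 3 Dck features (r = 0.872 to 0.979) moved together, while the Rrm2b features ran opposite (r = -0.654). Rrm2b feature 12237 ran from -0.38 to 0.53 and feature 30147 from -0.96 to 0.39, and both the 0.53 and the -0.96 were on wild-type 4, where their average lies nearer 0 than either. Shmt1 feature 11289 was at 2.28 and 2.00 on wild-type 4 and 5 and between 0.078 and 0.57 on the other 7 arrays. Shmt1 feature 24643 ranged more evenly, at 0.84, 1.26, 1.47, 1.89 and 1.54 in wild-type and -0.10, 0.61, 1.31 and 0.41 in knockout. Rrm2 and Tk1 have 1 feature each.

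**Figure D2:**
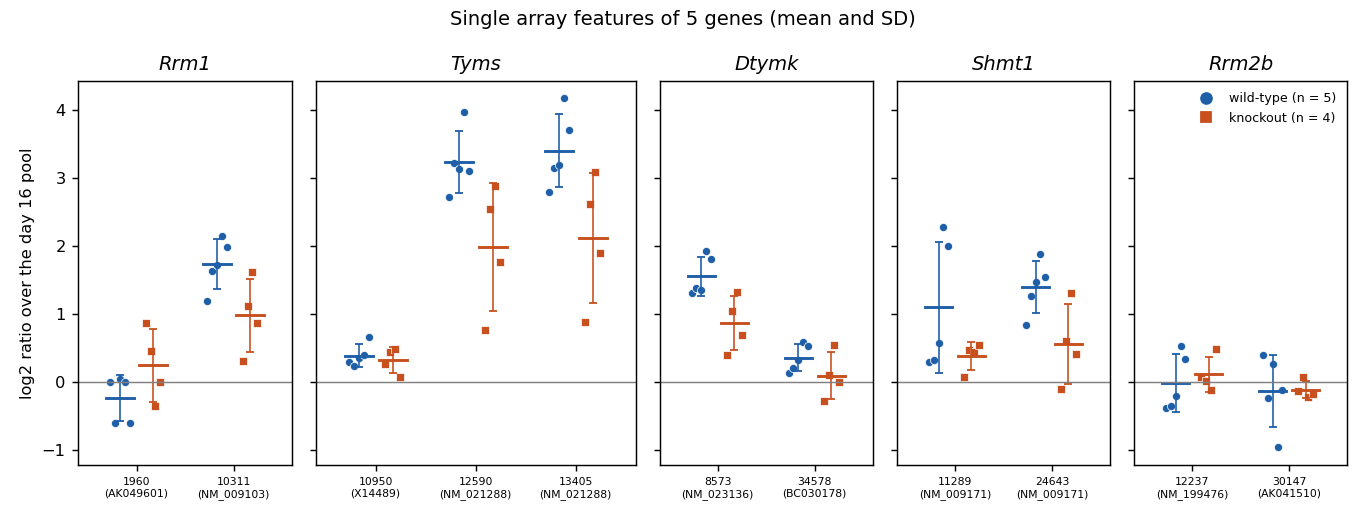
Log2 ratio over the day 16 pool (vertical axis) for each array feature of Rrm1, Tyms, Dtymk, Shmt1 and Rrm2b, labelled with feature number and accession, for 5 wild-type arrays (circles) and 4 knockout arrays (squares) with mean and SD. Tyms features 12590 and 13405 lie far above feature 10950, and Rrm1 feature 10311 lies above feature 1960.

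In the comparison of genotypes, 8 of the 9 genes had a lower mean in knockout and Rrm2b a higher one, but none passed. Over all values 0.0163% were called either way (5 of 30654). Of the averaged values Rrm2 differed most, at -0.96 (SE 0.485, 95% interval -2.07 to 0.15, limma adjusted p = 0.919). Tyms differed by -0.86 (SE 0.322, 95% interval -1.60 to -0.13, limma adjusted p = 0.917), and its features 12590, 13405 and 10950 by -1.24, -1.29 and -0.064. Tk1 differed by -0.79 (SE 0.359, interval -1.62 to 0.027) and Shmt1 by -0.78 (SE 0.342, interval -1.56 to 0.0029). Dut differed by -0.49 (interval -1.01 to 0.032), Dtymk by -0.48 (interval -0.93 to -0.026), Dck by -0.39 (interval -1.17 to 0.38) and Rrm1 by -0.14 (interval -0.46 to 0.18). For Rrm2b the difference was 0.074 (interval -0.20 to 0.35).

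The intervals are not corrected for the number of values tested. With that correction the limma adjusted p ran from 0.917 to 0.963 over the 9 genes, and the unadjusted limma p was under 0.05 for 2 of them, Tyms and Dtymk, as for 1656 of all 30654 values. The median of the 9 differences was -0.49, and the median over all values was 0.0079. By rank from the lowest difference among named genes, Rrm2 stood at 284, Tyms at 385, Tk1 at 460 and Shmt1 at 478 of 19087. For Rrm1 the sign depended on the feature, since feature 10311 differed by -0.75 and feature 1960 by 0.48. After quantile normalization the averaged Rrm1 difference was 0.087. All the other negative differences shrank with that scaling, to -0.54 for Rrm2, -0.58 for Tyms, -0.41 for Tk1 and -0.22 for Dut. The median of the 9 differences was then -0.34.

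For 0 of the 9 genes did all knockout arrays lie below, or all above, all wild-type arrays. Over all values 0.946% separated with knockout lower and 0.796% with knockout higher. Knockout 1 was the lowest array for Rrm2, Tyms, Tk1, Dut, Dck, Dtymk and Shmt1, and knockout 3 lay within the wild-type range for all of these but Rrm2, where it lay above it. Without knockout 1 the differences were -0.56 for Rrm2, -0.58 for Tyms and -0.41 for Tk1. Without knockout 3 Rrm2 differed by -1.45 and Tk1 by -1.05, the lowest limma adjusted p of the 9 genes being 0.357.

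**Figure D3:**
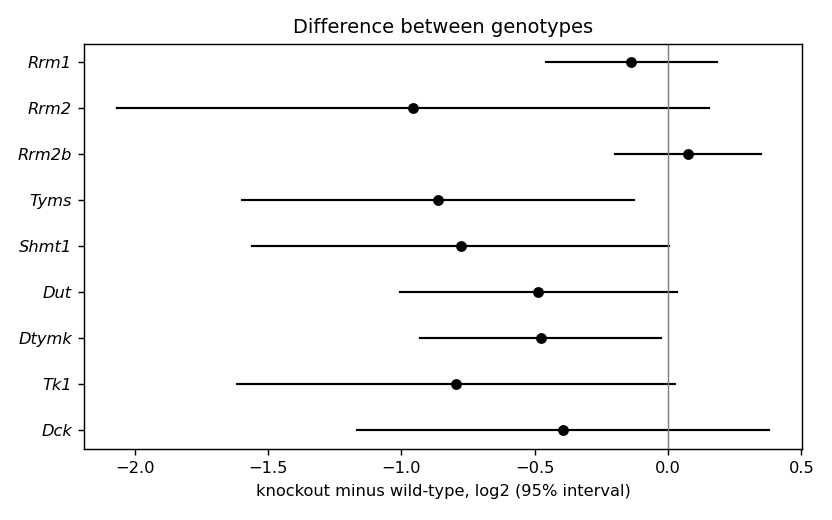
Knockout minus wild-type difference on the log2 scale (horizontal axis) for each of the 9 genes, with points for the limma estimate and lines for its 95% interval, from 5 wild-type and 4 knockout arrays. The estimates run from -0.96 for Rrm2 to 0.074 for Rrm2b, and the intervals of Tyms and Dtymk lie below 0 before any correction for the number of values tested.

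Samples whose labels share a replicate number can be set against each other, though the labels do not say what the numbers stand for. Some arrays with unlike numbers were as alike, with wild-type 1 and knockout 2 at a correlation of 0.261 and pair 1 at 0.244. How often such counts arise over all values is not given here. Knockout was lower in 4 of 4 numbered pairs for Tyms, Dut and Shmt1, in 3 of 4 for Rrm1, Rrm2, Tk1, Dck and Dtymk, and in 2 of 4 for Rrm2b. For Rrm1 the count includes pair 1, where the difference was only -0.001. In pair 3 the differences were 0.13 for Rrm2, 0.087 for Tk1 and -0.068 for Tyms, and in pair 1 they were -1.74, -1.87 and -1.30. With the replicate number as a block, Rrm2 differed by -1.03 (SE 0.375) and Tyms by -0.83 (SE 0.315), and no member passed (lowest limma adjusted p = 0.751). The count over all values fell from 5 to 0 in that fit, so the deleted gene Pycard was not called there either.

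The titles of the arrays end in a letter (wild-type 1 to 3, knockout 1 to 3) or in a number (wild-type 4 and 5, knockout 4), and the labels do not say what this marks. Dck, Shmt1, Tyms, Dut and Dtymk were higher on both number-titled wild-type arrays than on all 3 letter-titled ones, 5 of 9 genes where 18.3% of all values were. For Shmt1 and Dck the means of the number-titled and the letter-titled wild-type arrays differed by 1.13 each, and for Rrm2 by 0.0077. Within the letter-titled arrays the genotypes differed by -0.80 for Rrm2, -0.75 for Tk1, -0.57 for Tyms, -0.33 for Shmt1, -0.072 for Dck and 0.0082 for Rrm1, with overlap for all 9 genes. Within the number-titled arrays, where knockout 4 is the only knockout, the differences were -1.43 for Rrm2, -0.82 for Tk1, -1.42 for Tyms, -1.45 for Shmt1, -0.68 for Dck and -0.44 for Rrm1. The part that the title style had in these values was not tested.

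Enzymes with a counterpart used outside S phase were compared with it within each array. Rrm2 had a higher ratio than Rrm2b on 9 of 9 arrays, by 3.39 ± 0.44 (SD, 5 wild-type arrays) and 2.36 ± 1.22 (SD, 4 knockout arrays). Tk1 exceeded mitochondrial Tk2 on 9 of 9 arrays, by 2.70 ± 0.47 (SD, n = 5) and by 1.87 ± 0.69 (SD, n = 4). As the average of its features Shmt1 exceeded mitochondrial Shmt2 on 9 of 9, by 0.73 ± 0.81 (SD, n = 5) and 0.24 ± 0.13 (SD, n = 4). On wild-type 1 it did so by only 0.0035. Shmt1 feature 24643 alone lay above Shmt2 on every array. Feature 11289 alone lay below Shmt2 on wild-type 1 to 3 and on knockout 3, at 0.298 against 0.566 on wild-type 1. Dck exceeded mitochondrial Dguok on 5 of 9. Dck exceeded Dguok feature 2236 alone on 2 of 9 arrays, and Dguok feature 44587, which was at -2.87 on wild-type 3, on 6 of 9. These are differences of ratios to the pool and not of transcript levels.

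None of these 4 contrasts differed between the genotypes by the exact two-sided permutation test over all divisions of the arrays, whose smallest p is 0.00794. The knockout minus wild-type difference was -1.03 for Rrm2 minus Rrm2b (exact p = 0.127), -0.84 for Tk1 minus Tk2 (exact p = 0.0556), -0.60 for Dck minus Dguok (exact p = 0.167) and -0.49 for Shmt1 minus Shmt2 (exact p = 0.381). Against Dguok feature 2236 alone the Dck contrast was -0.28 (exact p = 0.516), a comparison chosen after seeing the data. Adjusted over the 4 pairs, the exact p was 0.222 for the first 3. Without knockout 3 the first 2 contrasts were -1.58 and -1.09, each with exact p = 0.0179, the smallest that 5 against 3 arrays allow. Without knockout 1 they were -0.644 and -0.537 (exact p = 0.232 and 0.161). Leaving out knockout 3 was the only omission of an array that gave an exact p under 0.05 for either.

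**Figure D4:**
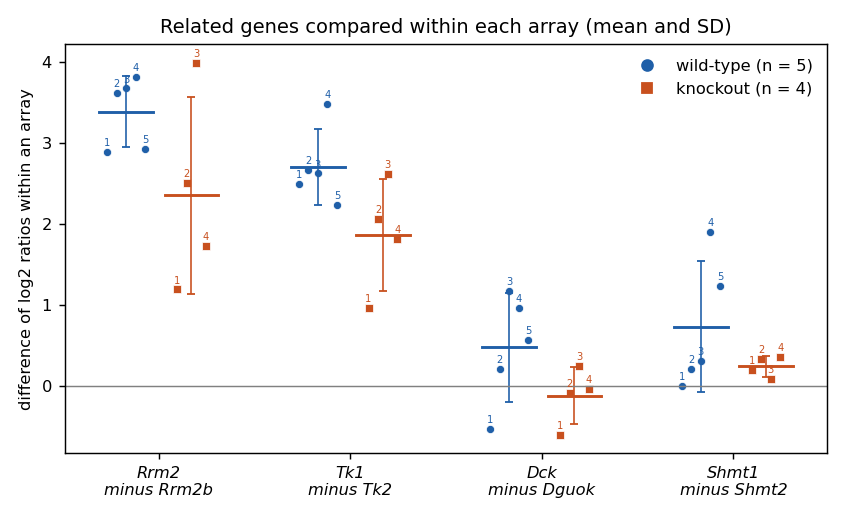
Difference of log2 ratios within each array (vertical axis) for Rrm2 minus Rrm2b, Tk1 minus Tk2, Dck minus Dguok and Shmt1 minus Shmt2, with circles for 5 wild-type and squares for 4 knockout arrays, numbered by replicate, and bars for mean and SD. Rrm2 and Tk1 lie above their counterparts on all 9 arrays and the genotypes overlap for every pair.

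Among 54 further nucleotide genes in 5 lists, 4 were called higher than the pool in wild-type and 2 in knockout, where 3.73% and 1.58% of all values were. Between the genotypes 0 were called, where 0.0163% of all values were. Of 7 folate cycle genes 0 were called against the pool, and of 5 genes of pyrimidine synthesis also 0. Some of them differed from the pool in wild-type with less than the minimum mean of 1. Mthfd2, a mitochondrial folate enzyme, had a wild-type mean of 0.59 ± 0.21 (SD, n = 5; limma adjusted p = 0.0181). Cad, the first enzyme of pyrimidine synthesis, had one of 0.66 ± 0.086 (SD, n = 5; limma adjusted p = 0.00266). Of 12 genes of purine synthesis Adssl1 alone was called, as lower in wild-type at -1.12 ± 0.21 (SD, n = 5; limma adjusted p = 0.000374). Atic, which closes the purine ring, stood at 0.72 ± 0.17 and Prps2 at 0.72 ± 0.46 in wild-type (limma adjusted p = 0.00341 and 0.0214). Umps and Ctps, which finish UMP and CTP, stood at 0.44 ± 0.19 and 0.37 ± 0.39 in wild-type (limma adjusted p = 0.00417 and 0.0799).

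Of 15 other kinases and salvage enzymes Nme4, a mitochondrial nucleoside diphosphate kinase, was called higher in wild-type at 1.69 ± 0.19 (SD, n = 5; limma adjusted p = 0.000298) and in knockout at 1.01 ± 0.50 (SD, n = 4; limma adjusted p = 0.013). Dctd, which deaminates dCMP to dUMP, had wild-type values of 0.35, 0.46, 0.24, 1.54 and 1.11, high on wild-type 4 and 5 as Dck and Shmt1 were. Of 15 genes of breakdown, pool cleansing and transport, 3 were called higher in wild-type and 1 in knockout. These were Slc29a1, a nucleoside transporter, at 1.87 ± 0.20 and 1.34 ± 0.55 in the 2 genotypes, with Ada, adenosine deaminase, at 1.48 ± 0.68 and Dctpp1, a dCTP pyrophosphatase, at 1.28 ± 0.27 in wild-type only by this threshold. The difference between genotypes was -0.53 for Slc29a1, -1.06 for Ada and -0.50 for Dctpp1, each with limma adjusted p = 0.917. Upp1, uridine phosphorylase, was at 5.97 on knockout 4 and between -1.90 and 0.35 on the other 8 arrays.

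The medians of the differences between genotypes were -0.12 for the folate list, -0.20 for purine synthesis, -0.10 for pyrimidine synthesis, -0.018 for other kinases and -0.094 for breakdown and transport, beside -0.49 for the 9 deoxynucleotide genes. The medians of the wild-type means were 0.21, 0.23, 0.37, 0.064 and 0.10 in the same order, beside 1.25. Rrm2b was set beside 11 measured p53 targets, whose median difference was -0.011. Of these Eda2r was called higher than the pool in both genotypes, at 2.48 ± 0.36 (SD, n = 5) and 1.82 ± 0.64 (SD, n = 4), while Mdm2 stood at -0.076 ± 0.87 and Bbc3 at 0.76 ± 0.18 in wild-type. Others lay below the pool in wild-type without reaching the minimum size, Phlda3 at -0.82 ± 0.085, Cdkn1a at -0.63 ± 0.42 and Zmat3 at -0.44 ± 0.17 (SD, n = 5; limma adjusted p = 0.000231, 0.0114 and 0.0135). Phlda3 alone of the 11 separated the genotypes, 0.33 higher in knockout (limma adjusted p = 0.917), and these 3 genes were named after their values were seen.

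Markers of dividing cells were also lowest on knockout 1. On wild-type 1 to 5 the median over 20 S phase markers was 1.53, 1.94, 1.84, 2.39 and 2.14, and on knockout 1 to 4 it was 0.41, 1.29, 1.80 and 1.02. For 15 mitosis markers it was 3.03, 3.18, 3.15, 3.80 and 3.57, against 0.89, 2.72, 2.75 and 1.96. The median over the 9 deoxynucleotide genes was 0.72, 0.80, 1.02, 1.83 and 1.50 in wild-type and 0.38, 0.79, 0.94 and 0.56 in knockout, so knockout 1 was lowest and wild-type 4 highest in all 3. On knockout 3 the mitosis median lay below every wild-type array, and 6 of the 15 mitosis markers separated with knockout lower, against 0.946% of all values and 0 of the 9 genes. Mcm6, a subunit of the replicative helicase, and Cdc6, its loader, differed by -1.36 and -1.21, and Cenpe and Aurkb of mitosis by -1.65 and -1.63, each with limma adjusted p = 0.917. Of the S phase markers 17 were called higher than the pool in wild-type and 14 in knockout, with Uhrf1 at 4.01 ± 0.39 (SD, n = 5) in wild-type, and of the mitosis markers 15 and 14, with Birc5 at 4.20 ± 0.33.

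Granule neuron progenitor markers, 10 of 10 measured, had medians of 1.97 to 2.87 on the wild-type arrays and 0.36 to 2.29 on the knockout arrays, knockout 1 again the lowest. Mature granule neuron markers, 9 of 10 measured, ran from -0.78 to -0.18 in wild-type and -0.36 to -0.081 in knockout. Oligodendrocyte markers (8 measured) ran from -1.55 to -1.04 and from -1.06 to -0.67, and Purkinje cell markers (6 measured) from -1.14 to -0.72 and from -0.96 to -0.15. Microglia markers (7 measured) ran from 0.88 to 1.64 in wild-type and from 0.008 to 1.43 in knockout, and blood cell markers (6 measured) from -0.12 to 1.18 and -0.047 to 0.43. In such bulk samples fewer cells of a type and less RNA per cell cannot be told apart, and the part that these cell types had in the values of the 9 genes was not tested. Ratios to a cerebellar pool give no level, so the labelled tissue could not be checked against its defining markers.

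**Figure D5:**
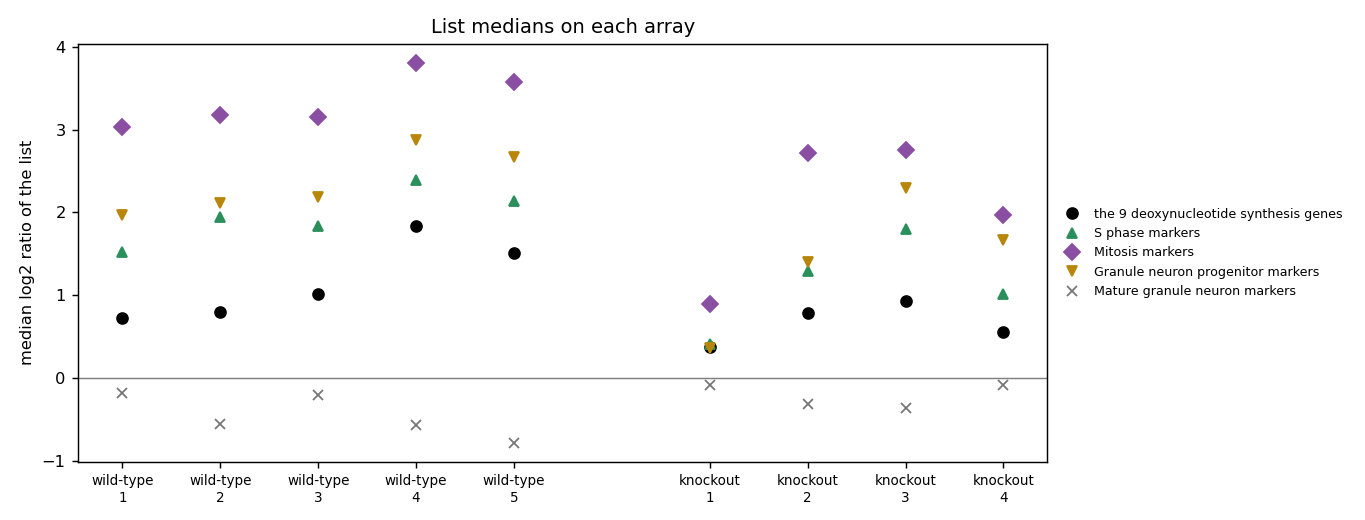
Median log2 ratio over the day 16 pool (vertical axis) of the 9 deoxynucleotide synthesis genes and of 4 marker lists on each of 5 wild-type and 4 knockout arrays (horizontal axis). Knockout 1 is lowest for the 9 genes and for the S phase, mitosis and progenitor markers, and wild-type 4 is highest.

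Among the 9 genes, Tyms and Dtymk were the most alike over the 9 arrays (r = 0.977), followed by Dut and Shmt1 (r = 0.951) and Dut and Dtymk (r = 0.949). Rrm2 and Tk1 correlated at r = 0.909, Rrm2 and Dck at 0.339, and Rrm2b had a negative r with each of the other 8. The features of Rrm1 ran opposite (r = -0.735), as did those of Rrm2b (r = -0.654), so correlations of these averages need not describe either feature. These values are taken over 9 arrays that differ in genotype and title style, and they are given without a test.

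The named genes with the most similar pattern were taken by Pearson correlation over the 9 arrays, 3 for each gene, predicted transcripts left out. For Rrm2 they were Mcm3 (r = 0.977), Pmf1 (0.977) and Ppp1r14b (0.975), and for Tk1 they were Igfbpl1 (0.973), Mcm5 (0.971) and Birc5 (0.97). For Tyms they were Socs3 (0.993), Gins1 (0.993) and Lockd (0.992), for Dtymk Fbl (0.993), Rfc4 (0.992) and Wdr62 (0.989), and for Dut Dsn1 (0.993), Rpf1 (0.988) and Gar1 (0.988). Dck was most like Ssr3 (0.993), Thumpd3 (0.992) and Tram1 (0.99), and Shmt1 most like Zcwpw1 (0.994), Tnfaip8 (0.991) and Crispld1 (0.99). The closest to Rrm1 and Rrm2b, both averages of features that ran opposite, reached less. For Rrm1 they were Trim67 at 0.965, Ubl4b at 0.946 and Krtap1-5 at 0.934. For Rrm2b they were Ppp1r16b at 0.916, Mvk at 0.893 and Sox17 at 0.891. Each is among the highest of very many correlations over 9 points, and the list carries no statement on shared function.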

How the data were processed

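The deposited table holds 1 log2 ratio per feature and array, Cy5 (sample) over Cy3 (reference) per the labels; no array has the dyes exchanged. The submitters' processing notes name Agilent Feature Extraction; the sources used here do not give its version, its corrections for background and dye, or any filter. The base of the log is not stated. Every array has 20 to 280 values beyond 4.82, the log10 limit for 16-bit scanner signals, and 1 array has a value (11.4) beyond the 11.1 of a natural log; base 2 was therefore assumed, and the folds rest on it. The table has 45220 features, no intensities and no missing cell; precision rests on how many arrays there are. The platform annotation names 1 gene for 33653 features, several for 56 and none for 11511. Through gene identifiers 0 symbols changed against a RefSeq table of GRCm38.p6. Features of a gene were averaged, which gave 30654 values.

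Genotypes, and each genotype against 0, were tested with limma 3.58.1 in R 4.3.3 (lmFit, eBayes, two-sided, all 9 arrays, no covariates), with Benjamini-Hochberg adjustment over all values and a threshold of 0.05; calls against the pool also needed a mean of at least 1, and leave out the pool's own spread. The code was tested on simulated data. Same-numbered arrays' deviations from their group means correlated at 0.244, 0.247, 0.446 and 0.304, all above 0.1, so the labels' numbers were taken as a pairing, though wild-type 1 with knockout 2 (0.261), wild-type 2 with knockout 1 (0.191) and wild-type 5 with knockout 4 (0.289) came as close; the main fit leaves it out and a block on the number is the alternative. Named genes are the 9 genes, Pycard, Tk2, Dguok, Shmt2, in each list the 2 with the largest difference and the 2 farthest from the pool, and the 3 most similar genes. Further alternatives were title style, leaving out arrays in turn, quantile normalization, centring by medians, a minimum SD, single features, exact zeros as missing, array weights, a trended robust prior and other thresholds. Members and lists were chosen with earlier results of these data known. Some list genes were not analysed here.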

Additional observations from a re-analysis of the deposited data

Results flagged for a closer look

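A gap test (Dixon, at 95%) compared the most extreme array of each genotype with its nearest neighbour in 74 groups of 4 or 5 arrays, where chance marks about 1 in 20. It marked 4 values, a share close to that rate. Tk1 was at 3.28 on wild-type 4, with the other 4 wild-type arrays between 2.60 and 2.77. Dguok was at -1.10 on wild-type 3, against 0.157 to 0.506 on the others, through its feature 44587 (AK037078), which was at -2.87 there. The median of the oligodendrocyte markers was -1.06 on knockout 3, against -0.73 to -0.671 on the other knockout arrays. The median of the blood cell markers was 0.435 on knockout 3, against -0.047 to 0.027. Knockout 3 is also the array on which Rrm2, Tyms and Tk1 lay at or above the lowest wild-type array; whether these values are connected was not tested.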

How the results depend on the processing

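No alternative called any of the 9 genes between the genotypes, and the lowest limma adjusted p was 0.349 (Rrm2, array weights). With the replicate block, and in the letter-titled arrays alone, no value passed at all. The deleted gene Pycard was thus missed too, and the lack of a call there says little of the 9 genes. For 8 of them the sign held in every alternative that tested them, and the SD filter left out Rrm1 and Rrm2b. The size moved more, as quantile normalization took Rrm2 from -0.957 to -0.544 and Tk1 from -0.794 to -0.414. Rrm1 turned to 0.0082 in the letter-titled arrays alone, 0.0865 after quantile normalization, 0.0994 with array weights and 0.478 for feature 1960. The count over all values was 0 with the replicate block (1868 with an unadjusted p under 0.05), 0 in the letter-titled arrays (1065), 0 in the number-titled arrays (1651) and 3 after quantile normalization, and 1 to 6 with one array left out. The replicate block changed no call of a member against the pool. In the number-titled arrays, with a single knockout assumed to vary like the wild-type pair and 1 residual degree of freedom, 0 genes were called against the pool in either genotype. In knockout, 5 genes were called without the minimum mean, and 1 to 4 with that minimum and 1 array left out. In wild-type, array weights left 4 genes called, without Shmt1, and so did the letter-titled arrays alone. With exact zeros as missing 6 were called, with Rrm1 at 1.08 (limma adjusted p = 0.00581). Leaving out wild-type 1 also gave 6, with Dtymk at 1.02 (limma adjusted p = 0.00428). Without the minimum mean 7 genes were called in wild-type. The Shmt1 minus Shmt2 contrast was 0.0333 in the letter-titled arrays (exact p = 0.8). With 1 array left out, the contrasts ran from -1.58 to -0.644 for Rrm2 minus Rrm2b and from -1.09 to -0.537 for Tk1 minus Tk2. With 4 numbered pairs the exact test of a contrast cannot go below 0.125. The causes were not tested. Without intensities, dim spots could not be told from bright ones.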
